A study of Mus musculus with 32 samples.

Results

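The p53 pathway is described here through 10 genes: Trp53, which encodes p53 itself, and Cdkn1a, Mdm2, Ccng1, Gadd45a, Btg2, Sesn2, Phlda3, Txnip and Sat1, each known from earlier work as a target of p53. The rule takes genes by name and uses no measured value, and all 10 were found by Ensembl identifier among the 12451 genes of the count table. mRNA was measured in 32 wells of YUMM3.3, a mouse melanoma cell line that carries mutant Braf and was derived from a mouse with deleted Cdkn2a, by BRB-seq, a bulk RNA method that tags each sample with a barcode, pools the samples and reads the 3′ end of each transcript. The 8 groups of 4 wells were untreated cells, cells given 40 ng/ml Activin-A, cells given 20 ng/ml IFN-γ and cells given both factors, each harvested after 4 hrs or 12 hrs of treatment. The cells of all groups were of the same line and were seeded in 6-well plates, and the labels give skin as their source. Each group is thus a model of a single tumor line in culture without host cells. The wells are not stated to come from separate cultures or days, and p-values therefore measure the spread between wells, which may be technical.

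p53 is a transcription factor whose protein is kept low by the ubiquitin ligase Mdm2 and is stabilized by DNA damage, oncogene signals and other stress. It binds pairs of decamers of a shared consensus and raises genes of cell cycle arrest, DNA repair, metabolism and cell death, and Mdm2 among them closes a negative feedback loop. Since p53 is controlled mainly at the protein level, its mRNA is no measure of its activity, and several of its targets also answer to other inputs: Cdkn1a and Gadd45a to Smad and stress signals, Sesn2 to Atf4, and Txnip to the glucose sensor MondoA. The loss of Cdkn2a removes Arf, an inhibitor of Mdm2, which is a common way for melanoma to weaken the pathway without mutation of p53.

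The promoters of the 4 members that changed with a treatment are shown first, because they differ in the p53 motif. RefSeq's annotation of GRCm38.p6 gave 11 start sites for the 10 members, with 2 for Cdkn1a, and the 250 bases before each start were searched on both strands for 1 decamer of the p53 consensus. This decamer was found in 5 of the 11 windows, those of Trp53, Mdm2, Ccng1, Gadd45a and the upstream start of Cdkn1a, compared to 7.13% of 32851 windows of all genes. Of the 4 members whose mRNA changed with a treatment, Cdkn1a and Gadd45a had the decamer and Txnip and Sat1 did not. The members not called with a treatment were split as well: Trp53, Mdm2 and Ccng1 had it and Btg2, Sesn2 and Phlda3 did not. The windows of Cdkn1a (upstream start, chr17:29090729-29090978, plus strand), Gadd45a (chr6:67037408-67037657, minus strand), Txnip (chr3:96557707-96557956, plus strand) and Sat1 (chrX:155216450-155216699, minus strand) are given 5′ to 3′ with the decamers of the p53 consensus in capitals.
Cdkn1a: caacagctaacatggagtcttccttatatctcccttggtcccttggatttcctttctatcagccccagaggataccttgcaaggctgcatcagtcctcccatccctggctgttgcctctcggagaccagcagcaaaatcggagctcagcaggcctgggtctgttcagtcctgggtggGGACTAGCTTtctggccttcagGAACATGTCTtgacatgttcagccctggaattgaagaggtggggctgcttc
Gadd45a: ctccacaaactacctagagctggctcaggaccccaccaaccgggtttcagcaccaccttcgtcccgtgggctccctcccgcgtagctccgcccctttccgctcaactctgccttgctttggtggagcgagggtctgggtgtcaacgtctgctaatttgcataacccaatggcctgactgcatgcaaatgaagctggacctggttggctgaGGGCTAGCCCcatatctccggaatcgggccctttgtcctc
Txnip: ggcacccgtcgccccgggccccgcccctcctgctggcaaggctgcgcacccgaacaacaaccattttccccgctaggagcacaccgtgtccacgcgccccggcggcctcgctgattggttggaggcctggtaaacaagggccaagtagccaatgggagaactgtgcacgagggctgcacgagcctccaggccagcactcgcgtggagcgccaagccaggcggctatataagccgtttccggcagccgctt
Sat1: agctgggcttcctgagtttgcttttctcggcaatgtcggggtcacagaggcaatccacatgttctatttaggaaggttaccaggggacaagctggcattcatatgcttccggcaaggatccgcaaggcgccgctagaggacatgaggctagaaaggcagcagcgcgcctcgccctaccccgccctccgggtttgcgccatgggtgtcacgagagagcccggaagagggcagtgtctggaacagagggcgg
The 2 marked decamers of Cdkn1a began 73 and 51 bases before the start and did not adjoin each other. That of Gadd45a began 40 bases before its start. Only exact matches were marked. In Cdkn1a the bases directly after GAACATGTCT, tgacatgttc, missed the consensus at 1 base. The Smad box CAGAC was present in 5 of the 11 windows, both of Cdkn1a and those of Ccng1, Gadd45a and Sat1, but also in 42.2% of all windows, and none of its matches overlapped a p53 decamer. The E-box CACGTG, also searched on both strands, was present in 0 of the 11 windows and in 6.02% of all windows. The STAT motif TTCNNNGAA, where N is any base, was present in 0 of the 11 windows and in 7.02% of all windows. These counts are of exact matches and do not show that sites with other letters are absent. A match is a description of letters, and distant sites, such as those known within introns of Mdm2 and Gadd45a, lay outside these windows.

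**Figure D1:**
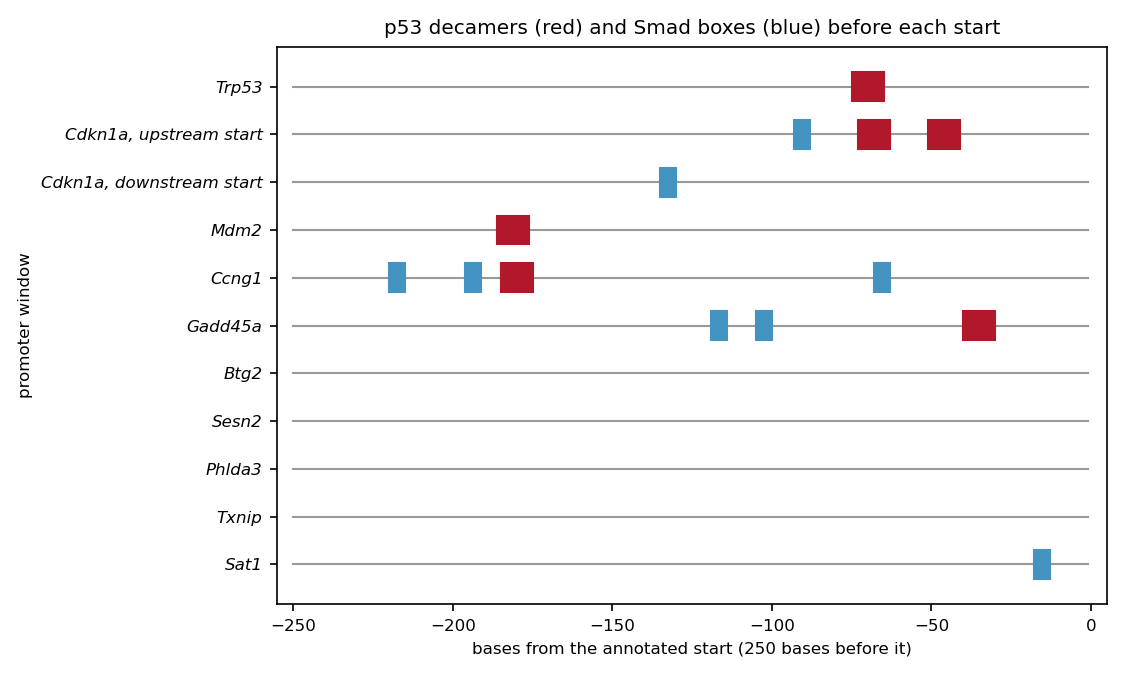
Matches to 1 decamer of the p53 consensus (red) and to the Smad box (blue) in the 250 bases before each RefSeq start of the 10 members; the x axis gives bases before the start. Of the 11 windows, 5 hold a p53 decamer, and those of Btg2, Sesn2, Phlda3 and Txnip hold neither motif.

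Totals ranged from 654539 to 1455074 counts per well, with a median of 988019.5, and a detection limit of 3 counts equalled 2.06 to 4.58 CPM (counts scaled to library size), a limit that covers counting error only. The cytokines acted as labelled: Gbp2, a GTPase induced by interferon, rose by a log2 fold change (log2FC) of 5.86 at 4 hrs and 6.46 at 12 hrs of IFN-γ, and Ccn2, a matrix protein induced by Smads, by 1.77 and 1.88 with Activin-A (edgeR adjusted p = 6.90e-53, 2.17e-91, 2.59e-19 and 5.13e-39). Of 7 markers of the melanocyte lineage, all were listed, with Mitf at only 2 to 13 counts and Pmel at 78 to 169 counts per well, and of 9 markers of immune, endothelial and epithelial cells 1 was listed, Ptprc, at 0 to 5 counts per well. Replicate 1 of Activin-A at 4 hrs, the library with the highest total, stood apart: chi-square per gene was 2.45 to 2.89 in its 3 pairs with its own group and 1.16 to 1.54 in the 45 other pairs of wells of the same group. The calls and single log2FC values of Activin-A at 4 hrs are therefore also given without it, whereas ranges over several contrasts include it. Without it the log2FC of Ccn2 at 4 hrs was 1.68 (adjusted p = 2.92e-23). As a check on the cell line, Cdkn2a had 0 to 3 counts per well.

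The members did not move as a group. Of the 9 members that could be tested at each time point, 2 rose with IFN-γ at 4 hrs, Txnip and Sat1, beside 5.06% of all 9137 genes tested, and 3 rose at 12 hrs, Txnip, Sat1 and Cdkn1a, beside 9.25% of 8971 genes. With IFN-γ 0 members fell. Activin-A gave 1 rise, Gadd45a, and 1 fall, Cdkn1a, at 4 hrs, beside 1.64% of genes, and 1 rise, Gadd45a, and 1 fall, Txnip, at 12 hrs, beside 2.41%. Without replicate 1 of Activin-A, the rise of Gadd45a was the 1 call among the 9 members at 4 hrs, beside 1.47% of genes. The calls in each contrast were so few that 1 gene more or less changes the share widely, and shares of 9 genes are not set against the background by a test.

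When both factors were compared to IFN-γ alone, 0 members were called at 4 hrs by edgeR or DESeq2, with 1 at an unadjusted p under 0.05, beside 0.810% of genes, and 1, Txnip, was lower at 12 hrs, beside 1.03%. The interaction, the effect of Activin-A with IFN-γ minus its effect without, was called for 0 members at 4 hrs and 0 at 12 hrs by both tools, with 1 and 2 at an unadjusted p under 0.05, beside 0.00% and 0.0111% of all genes. Over time in untreated cells, 3 of 10 members differed between 12 hrs and 4 hrs, Gadd45a and Txnip higher and Cdkn1a lower, beside 4.90% of 9332 genes. The effect of IFN-γ differed between 12 hrs and 4 hrs for 1 member, Cdkn1a, beside 0.579% of genes, and the effect of Activin-A for 0 members by edgeR or DESeq2, with 2 at an unadjusted p under 0.05, beside 0.0214%. Without replicate 1 of Activin-A at 4 hrs, 0 members were called by edgeR in the interaction at 4 hrs and 0 in the latter difference, with 1 and 0 at an unadjusted p under 0.05.

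In all, 14 changes were called over the 11 contrasts, and they lay in 4 genes: 5 in Txnip, 4 in Cdkn1a, 3 in Gadd45a and 2 in Sat1. Trp53, Mdm2, Ccng1, Phlda3 and Sesn2 were called in 0 of 11 contrasts, and Btg2 in 0 of the 3 in which it could be tested. The median log2FC of the tested members was -0.02 at 4 hrs and 0.09 at 12 hrs of IFN-γ, and -0.11 and -0.09 with Activin-A. With both factors against IFN-γ it was -0.005 at 4 hrs and -0.21 at 12 hrs, and in untreated cells over time 0.22. At 12 hrs of both factors against IFN-γ, 6 of the 9 values were negative, and 3 had an unadjusted p under 0.05 by edgeR. The median of all genes lay within 0.01 of 0 in each of these contrasts. The value of -0.11 at 4 hrs of Activin-A was -0.02 without replicate 1. Contrasts with the same untreated or IFN-γ wells share those wells, and their calls are not independent.

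**Figure D2:**
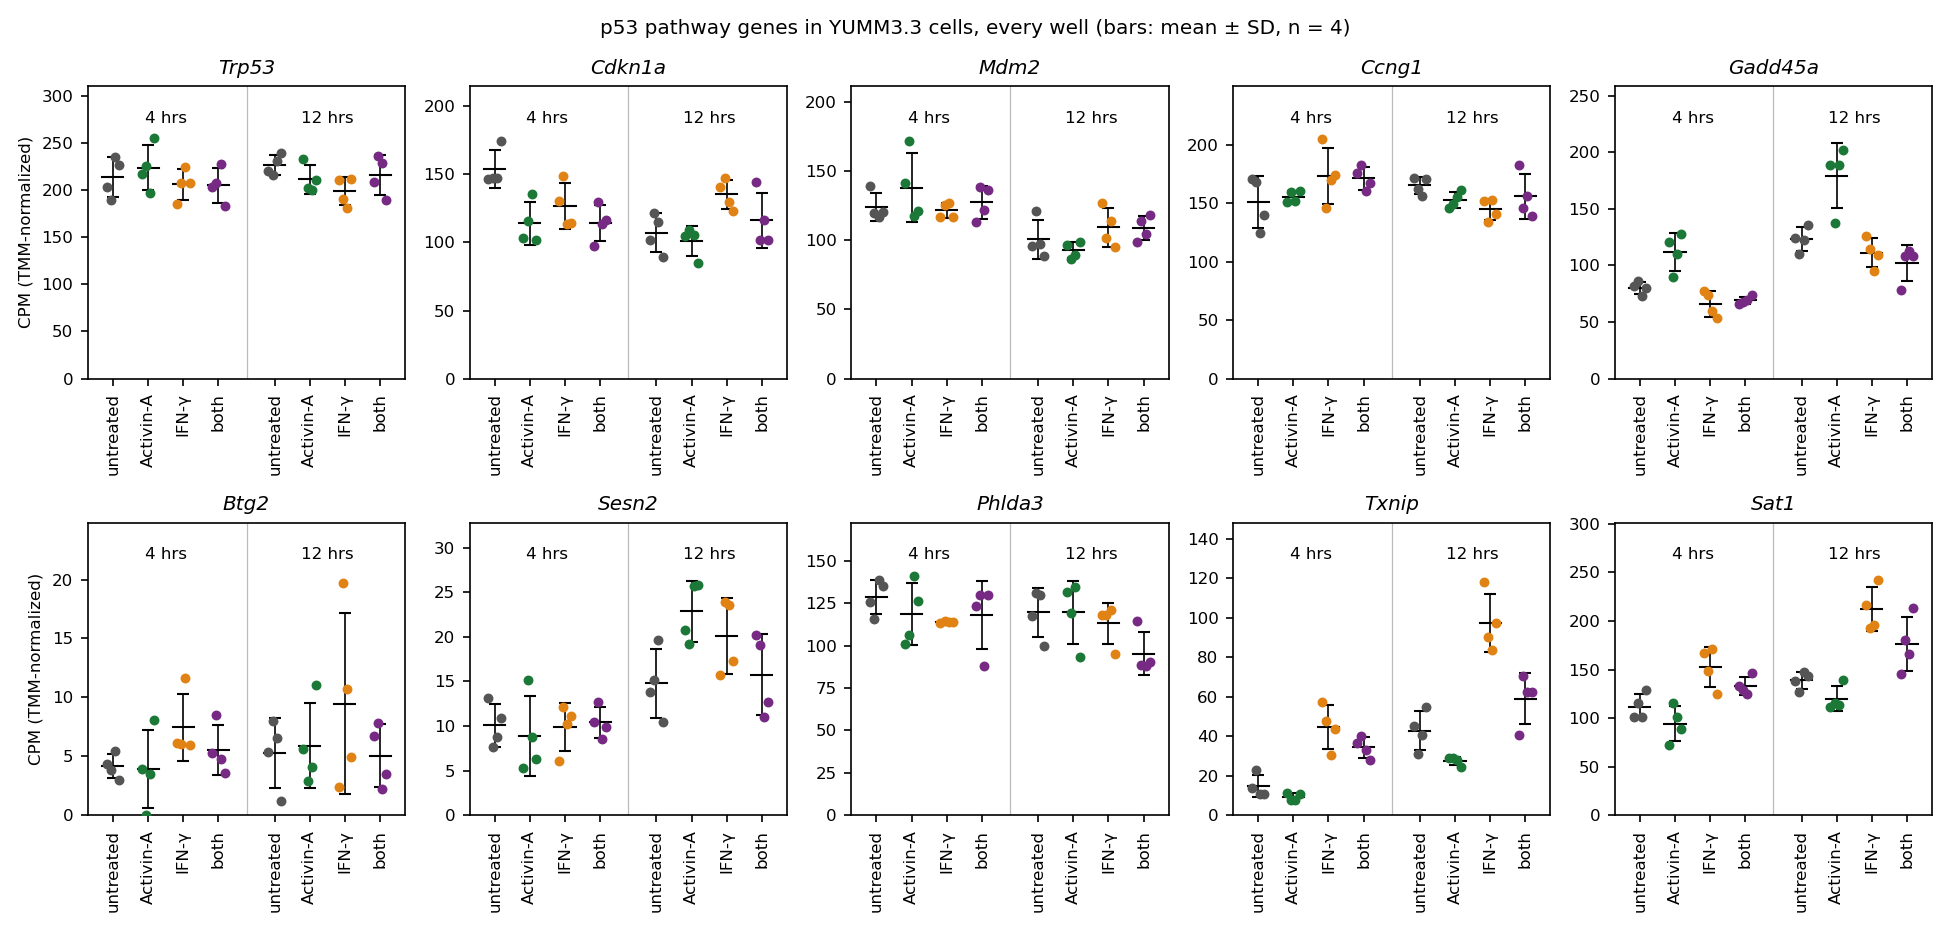
CPM of each member (y axis, TMM-normalized) in every well by treatment and time (x axis); points are wells, horizontal lines are means and bars SD, n = 4 per group. Txnip spans a 10.4-fold range of group means, whereas Trp53 spans 1.14-fold and Ccng1 1.198-fold.

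**Figure D3:**
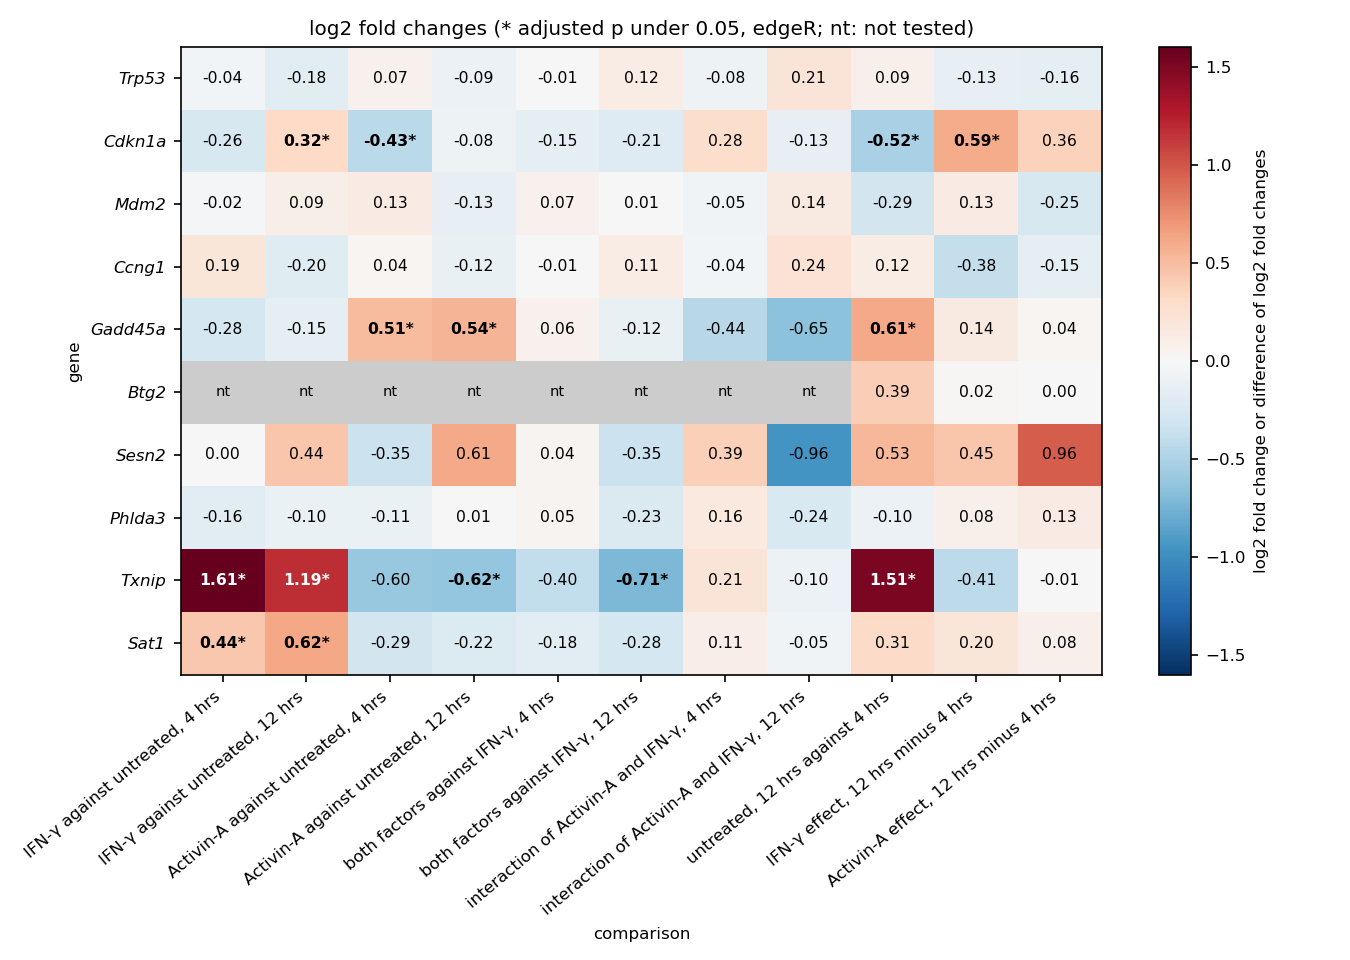
log2FC of each member (rows) in each of the 11 contrasts (columns), on a colour scale from blue (lower) to red (higher); an asterisk marks an edgeR adjusted p under 0.05, and nt a gene not tested. The 14 marked cells lie in the rows of Txnip, Cdkn1a, Gadd45a and Sat1.

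Txnip, an arrestin-like protein that inhibits thioredoxin and glucose uptake, had the widest range of the 10 members. It lies on the plus strand of chromosome 3 at chr3:96557957-96561883 (GRCm38). Untreated wells at 4 hrs had 13.97, 22.9, 10.9 and 10.9 CPM, and wells given IFN-γ had 57.2, 47.6, 30.7 and 43.4 CPM. Each IFN-γ well lay above each untreated well. The means were 14.7 ± 5.69 and 44.7 ± 11.0 CPM (SD, n = 4), a log2FC of 1.61 ± 0.22 (SE), or 3.06-fold (adjusted p = 6.84e-08). At 12 hrs untreated wells had 45.3, 31.1, 40.5 and 54.6 CPM and wells with IFN-γ 118, 90.3, 83.7 and 97.4 CPM, which again did not overlap. The log2FC was 1.19 ± 0.14, or 2.28-fold (adjusted p = 3.10e-11). The difference between these 2 effects of IFN-γ, -0.41 ± 0.27 on the log2 scale, did not pass the test (adjusted p = 0.822).

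Txnip also rose with time in culture without any factor, from 14.7 ± 5.69 to 42.9 ± 9.77 CPM, a log2FC of 1.51 ± 0.22 or 2.85-fold (adjusted p = 2.53e-07). The untreated wells at 12 hrs thus covered nearly the range of the IFN-γ wells at 4 hrs. Activin-A lay on the other side. At 12 hrs its wells had 28.7, 28.8, 27.7 and 24.6 CPM, all below the untreated wells, with a log2FC of -0.62 ± 0.19 (adjusted p = 0.0495). This call stood close to the threshold: the adjusted p was 0.153 by DESeq2 and 0.0524 with RLE normalization, and leaving out 1 of 7 of the 8 wells in turn raised it to 0.0744 to 0.229. At 4 hrs the log2FC was -0.60 ± 0.30 (adjusted p = 0.435), and -0.72 without replicate 1 of Activin-A (adjusted p = 0.425), with wells at 11.1, 7.60, 7.88 and 10.8 CPM that overlapped the untreated wells.

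With both factors, Txnip lay between Activin-A alone and IFN-γ alone at 12 hrs. The wells with both factors had 40.4, 70.5, 62.6 and 62.5 CPM, all below the wells with IFN-γ alone, a log2FC of -0.71 ± 0.14 or 1.64-fold lower (adjusted p = 0.000412). At 4 hrs they had 36.6, 39.9, 33.1 and 27.8 CPM, which overlapped those of IFN-γ alone, and the log2FC of -0.40 ± 0.18 did not pass the test (adjusted p = 0.477). The interaction at 12 hrs was -0.10 ± 0.24 (95% interval -0.57 to 0.37, adjusted p = 0.974). The 3′ end of Txnip is overlapped in the annotation by Gm15441, a gene on the other strand that is not listed in the count table, and since the strand setting of the counting is not given in the sources used here, reads of the 2 genes cannot be told apart.

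Sat1, which acetylates spermidine and spermine and so lowers polyamines, was higher with IFN-γ at both times. Its gene is at chrX:155213132-155216449 (GRCm38), on the minus strand. At 12 hrs the untreated wells had 138, 126, 148 and 143 CPM and the IFN-γ wells 217, 193, 196 and 243 CPM. The groups were well apart, with means of 139 ± 9.11 and 212 ± 22.9 CPM, a log2FC of 0.62 ± 0.09 or 1.54-fold (adjusted p = 3.68e-08). At 4 hrs the untreated wells had 101, 116, 101 and 129 CPM and the IFN-γ wells 167, 148, 171 and 125 CPM. The lowest IFN-γ well was below the highest untreated well, and the log2FC was 0.44 ± 0.11 (adjusted p = 0.00795). This call was lost when untreated replicate 1, IFN-γ replicate 1 or IFN-γ replicate 3 was left out (adjusted p = 0.0614, 0.0509 and 0.0502).

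The values of Sat1 with Activin-A were on the lower side without passing the test. Its log2FC was -0.29 ± 0.12 at 4 hrs (adjusted p = 0.302) and -0.22 ± 0.10 at 12 hrs (adjusted p = 0.360). Without replicate 1 of Activin-A the value at 4 hrs was -0.17 (adjusted p = 0.691). Against IFN-γ alone, the addition of Activin-A gave -0.18 ± 0.11 at 4 hrs (adjusted p = 0.666) and -0.28 ± 0.09 at 12 hrs (adjusted p = 0.135), where the wells with both factors had 146, 180.2, 166 and 213 CPM. The latter was called only when replicate 4 of both factors, the highest of these wells, was left out (log2FC -0.38, adjusted p = 0.0286). Between 4 hrs and 12 hrs in untreated cells the log2FC was 0.31 ± 0.11 (adjusted p = 0.0968).

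Cdkn1a encodes p21, the inhibitor of cyclin-dependent kinases through which p53 halts the cell cycle, and its changes went in different directions by time and factor. The gene lies at chr17:29090976-29100727 (GRCm38, plus strand) and is overlapped by AC167363.2, which the count table does not list. In untreated wells it fell from 147, 147, 147 and 175 CPM at 4 hrs to 102, 122, 115 and 89.4 CPM at 12 hrs. The wells of the 2 times did not overlap, and the log2FC was -0.52 ± 0.11 (adjusted p = 0.000626). At 12 hrs the wells with IFN-γ had 141, 147, 130 and 123 CPM, all above the untreated wells. The means were 107 ± 14.3 and 135 ± 11.0 CPM, a log2FC of 0.32 ± 0.11 or 1.25-fold (adjusted p = 0.0353). This rise was not called by DESeq2 (adjusted p = 0.193) or with all 32 wells in the fit (adjusted p = 0.0514), and it was lost without untreated replicate 1 or 4 or IFN-γ replicate 1, 2 or 3 (adjusted p = 0.0538 to 0.169).

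No rise of Cdkn1a was called at 4 hrs of IFN-γ. The wells had 130.1, 149, 114 and 114 CPM, of which only replicate 2 reached the range of the untreated wells, and the log2FC was -0.26 ± 0.11 (adjusted p = 0.222). The effect of IFN-γ at 12 hrs minus that at 4 hrs was 0.59 ± 0.15 on the log2 scale (95% interval 0.29 to 0.90, adjusted p = 0.0420). DESeq2 gave the same size with an adjusted p of 0.0509, and leaving out any 1 of 12 of the 16 wells raised it to 0.0517 to 0.189. Levels with IFN-γ at both times, 127 ± 16.6 and 135 ± 11.0 CPM, lay close together, whereas the untreated wells fell from 154 ± 13.8 to 107 ± 14.3 CPM.

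With Activin-A at 4 hrs Cdkn1a was lower, at 104, 116, 136 and 102 CPM, and all 4 wells lay below the untreated wells. The log2FC was -0.43 ± 0.11 (adjusted p = 0.0149). Without replicate 1 of Activin-A it was -0.38 (adjusted p = 0.0621), DESeq2 gave an adjusted p of 0.0801, and the call was also lost without untreated replicate 4 (adjusted p = 0.123) or Activin-A replicate 4 (adjusted p = 0.0712). At 12 hrs the log2FC with Activin-A was -0.08 ± 0.11 (95% interval -0.30 to 0.14, adjusted p = 0.880), and the difference between the times did not pass the test (0.36 ± 0.16, adjusted p = 0.769, and 0.30 without replicate 1 of Activin-A at 4 hrs, adjusted p = 0.806). Added to IFN-γ, Activin-A gave -0.15 ± 0.11 at 4 hrs (adjusted p = 0.738) and -0.21 ± 0.11 at 12 hrs (adjusted p = 0.498).

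Gadd45a, a stress sensor that acts in cell cycle arrest, DNA demethylation and p38 signaling, was the 1 member that rose with Activin-A. The gene lies at chr6:67035096-67037457 (GRCm38, minus strand) and is overlapped by E230016M11Rik, which the count table does not list. At 12 hrs the untreated wells had 124, 110.3, 122 and 136 CPM and the Activin-A wells 189, 137, 189 and 202 CPM. Each Activin-A well was higher than each untreated well, with means of 179 ± 28.6 and 123 ± 10.4 CPM, a log2FC of 0.54 ± 0.10 or 1.45-fold (adjusted p = 7.40e-05). At 4 hrs the untreated wells had 82.1, 86.0, 73.0 and 80.4 CPM and the Activin-A wells 120.5, 89.7, 110.3 and 128 CPM, which again did not overlap. The log2FC was 0.51 ± 0.12 or 1.42-fold (adjusted p = 0.00634), and 0.47 without replicate 1 of Activin-A (adjusted p = 0.0261). DESeq2 gave a log2FC of 0.50 with an adjusted p of 0.0696.

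In the presence of IFN-γ, no rise of Gadd45a with Activin-A was called. At 12 hrs the wells with IFN-γ had 126, 114, 95.5 and 109 CPM and those with both factors 78.5, 109, 113 and 109 CPM, 2 groups that overlapped, with a log2FC of -0.12 ± 0.12 (95% interval -0.35 to 0.12, adjusted p = 0.822). The interaction was -0.65 ± 0.15 at 12 hrs (95% interval -0.96 to -0.35, unadjusted p = 4.70e-05, adjusted p = 0.0652) and -0.44 ± 0.18 at 4 hrs (adjusted p = 0.824, and -0.40 without replicate 1 of Activin-A, adjusted p = 0.846). At 12 hrs it thus missed the threshold over all genes, and it passed without a filter on low counts (adjusted p = 0.0208), without replicate 2 of Activin-A (adjusted p = 0.0266) and without replicate 3 of IFN-γ (adjusted p = 0.0396). In the other 14 of 16 fits with 1 well left out it was not called, with adjusted p up to 0.243. The value ranged from -0.75 to -0.55 over these 16 fits. Among the alternatives that kept all wells, the adjusted p reached 0.717. IFN-γ alone gave -0.28 ± 0.13 at 4 hrs (adjusted p = 0.338) and -0.15 ± 0.11 at 12 hrs (adjusted p = 0.524). In untreated cells Gadd45a rose from 4 hrs to 12 hrs by a log2FC of 0.61 ± 0.12 or 1.52-fold (adjusted p = 0.000233), without overlap between the wells.

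Trp53 itself was the steadiest member. Over the 32 wells it ranged from 181 to 255 CPM, and its highest group mean, 227 ± 10.4 CPM in untreated cells at 12 hrs, was 1.14 times its lowest, 199 ± 14.9 CPM with IFN-γ at 12 hrs. Those 2 groups did not overlap, and their log2FC of -0.18 ± 0.08 did not pass the test over all genes (adjusted p = 0.170). Over the 6 contrasts of a treatment, the 95% intervals of its log2FC lay between -0.34 and 0.28. The genome holds a pseudogene, Trp53-ps, and reads shared with it could have been split or dropped in the counting.

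Mdm2, the ligase that degrades p53 and its classical feedback target, ranged from 86.4 to 172 CPM. With Activin-A its log2FC was 0.13 ± 0.11 at 4 hrs (adjusted p = 0.711, and 0.09 without replicate 1, adjusted p = 0.868) and -0.13 ± 0.11 at 12 hrs (adjusted p = 0.727), and its intervals over the contrasts of a treatment lay between -0.35 and 0.34. In untreated cells it was at 139, 119, 117 and 120.1 CPM at 4 hrs and at 95.9, 121, 97.3 and 88.2 CPM at 12 hrs. All wells at 12 hrs but replicate 2 were below those at 4 hrs, and the log2FC of -0.29 ± 0.11 did not pass the test (adjusted p = 0.102). It was called when replicate 2 at 12 hrs was left out (log2FC -0.40, adjusted p = 0.0313).

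Ccng1, which encodes cyclin G1, a p53 target that recruits a phosphatase to Mdm2, ranged from 124 to 204 CPM. Its log2FC with IFN-γ was 0.19 ± 0.10 at 4 hrs (adjusted p = 0.413) and -0.20 ± 0.09 at 12 hrs, where the wells did not overlap (adjusted p = 0.198), and the difference of -0.38 ± 0.13 did not pass the test (adjusted p = 0.362). Phlda3, an inhibitor of Akt at the membrane, ranged from 87.9 to 141 CPM, with its lowest group mean at 12 hrs of both factors, 95.2 ± 12.8 CPM. Against IFN-γ alone that was a log2FC of -0.23 ± 0.12 (adjusted p = 0.478). For both genes, as for Trp53 and Mdm2, the intervals over the 6 contrasts of a treatment kept within 0.47 of 0 on the log2 scale.

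Sesn2 and Btg2 were low, and little can be said of them at this depth. Sesn2, a leucine sensor that inhibits mTORC1 and a target of Atf4 as well as p53, had 5 to 26 counts per well. At 12 hrs untreated wells had 13.8, 15.1, 19.7 and 10.5 CPM and wells with Activin-A 20.7, 19.2, 25.7 and 25.8 CPM, which overlapped at 1 well of each group. The log2FC was 0.61 ± 0.25 (95% interval 0.12 to 1.098) and missed the threshold (adjusted p = 0.251). At 4 hrs it was -0.35 ± 0.34 (adjusted p = 0.783, and -0.13 without replicate 1, adjusted p = 0.958), and the difference between the times, 0.96 ± 0.41, did not pass either (adjusted p = 0.768, and 0.73 without that replicate, adjusted p = 0.820).

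With IFN-γ at 12 hrs the log2FC of Sesn2 was 0.44 ± 0.26 (adjusted p = 0.376) and the interaction -0.96 ± 0.36 (adjusted p = 0.496), and from 4 hrs to 12 hrs in untreated cells the log2FC was 0.53 ± 0.29 (adjusted p = 0.345). Btg2, an antiproliferative cofactor of mRNA deadenylation, had 188 counts over all 32 wells and 0 to 19 per well. It passed the filter on low counts only in the fit over all wells, where the log2FC of untreated cells from 4 hrs to 12 hrs was 0.39 ± 0.53 (adjusted p = 0.768). Without the filter it was called in 0 of 11 contrasts by edgeR. Its highest well, replicate 2 of IFN-γ at 12 hrs, had 19.7 CPM, and the other wells of that group 2.41, 10.7 and 4.95 CPM, while the gene ranged from 0 to 19.7 CPM over all 32 wells.

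The wider program was read from 48 other known targets of p53, of which 45 were listed in the table and 37 tested at 4 hrs and 36 at 12 hrs. With IFN-γ, 3 rose at 4 hrs and 0 fell, and at 12 hrs 3 rose and 2 fell, 8.11% and 13.9% of those tested beside the 5.06% and 9.25% of all genes. With both factors against IFN-γ at 12 hrs edgeR called 0 of 36, beside 1.03% of all genes, with 5 at an unadjusted p under 0.05. In this contrast DESeq2 gave an adjusted p to only 1 to 4 targets of each role, such as DNA repair, and called 0. Between the times in untreated cells edgeR called 0 of 38, beside 4.90% of all genes, with 7 at an unadjusted p under 0.05. There DESeq2 gave an adjusted p to 2 to 8 targets of each role and called 0. The median log2FC of these targets was -0.02 and -0.09 with IFN-γ at 4 hrs and 12 hrs.

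The targets that rose with IFN-γ include genes that interferon is known to induce directly. Tap1, a subunit of the peptide transporter of MHC class I, rose from 23.2 ± 2.39 to 283 ± 22.6 CPM at 4 hrs, a log2FC of 3.63 ± 0.13 (adjusted p = 6.55e-32), and by 4.20 ± 0.11 at 12 hrs (adjusted p = 1.47e-56). Pml, the organizer of PML nuclear bodies, rose from 82.1 ± 8.51 to 147 ± 17.2 CPM at 12 hrs, a log2FC of 0.83 ± 0.11 (adjusted p = 8.56e-10). At 4 hrs its log2FC was 0.51 ± 0.13 (adjusted p = 0.00942), which DESeq2 did not call (adjusted p = 0.0701) and which was lost without replicate 2 of IFN-γ (adjusted p = 0.204). Fas, the death receptor, had 0 to 3 counts in untreated wells at 4 hrs and 4 to 13 with IFN-γ (adjusted p = 0.00218), and no fold is given against wells at the detection limit. At 12 hrs, where it did not pass the filter on low counts, it had 0 to 1 counts in untreated wells and 3 to 17 with IFN-γ. Among the p53 targets of cell death, to which Fas belongs, edgeR called 0 of 9 at 12 hrs of IFN-γ and DESeq2 1 of 13.

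The remaining calls of IFN-γ at 12 hrs were 2 cell cycle genes and Rps27l. Btg1, a relative of Btg2, rose by a log2FC of 0.47 ± 0.11 (adjusted p = 0.000891), from 84.0 ± 9.74 to 116 ± 4.22 CPM without overlap. Plk3, a stress kinase, was lower by -0.44 ± 0.15 (adjusted p = 0.0404), and so was Rps27l, a ribosomal protein paralog that binds Mdm2, by -0.24 ± 0.08 (adjusted p = 0.0368). DESeq2 called neither of the latter (adjusted p = 0.219 and 0.155), and both were lost with all 32 wells in the fit (adjusted p = 0.0653 and 0.0670) and when single wells were left out, with adjusted p up to 0.151 for Plk3 and 0.307 for Rps27l. The lists of DNA repair and of metabolism and stress, with Ddb2, Xpc, Sesn1 and Tigar among them, had 0 calls in each of the 11 contrasts by edgeR, beside 0.00% to 9.25% of all genes, and at most 2 genes of a list at an unadjusted p under 0.05. DESeq2 also called 0. With both factors against IFN-γ at 12 hrs, however, it gave an adjusted p to only 1 and 2 genes of these lists. Without replicate 1 of Activin-A at 4 hrs both lists had 0 calls by edgeR in the 3 contrasts that use that group.

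**Figure D4:**
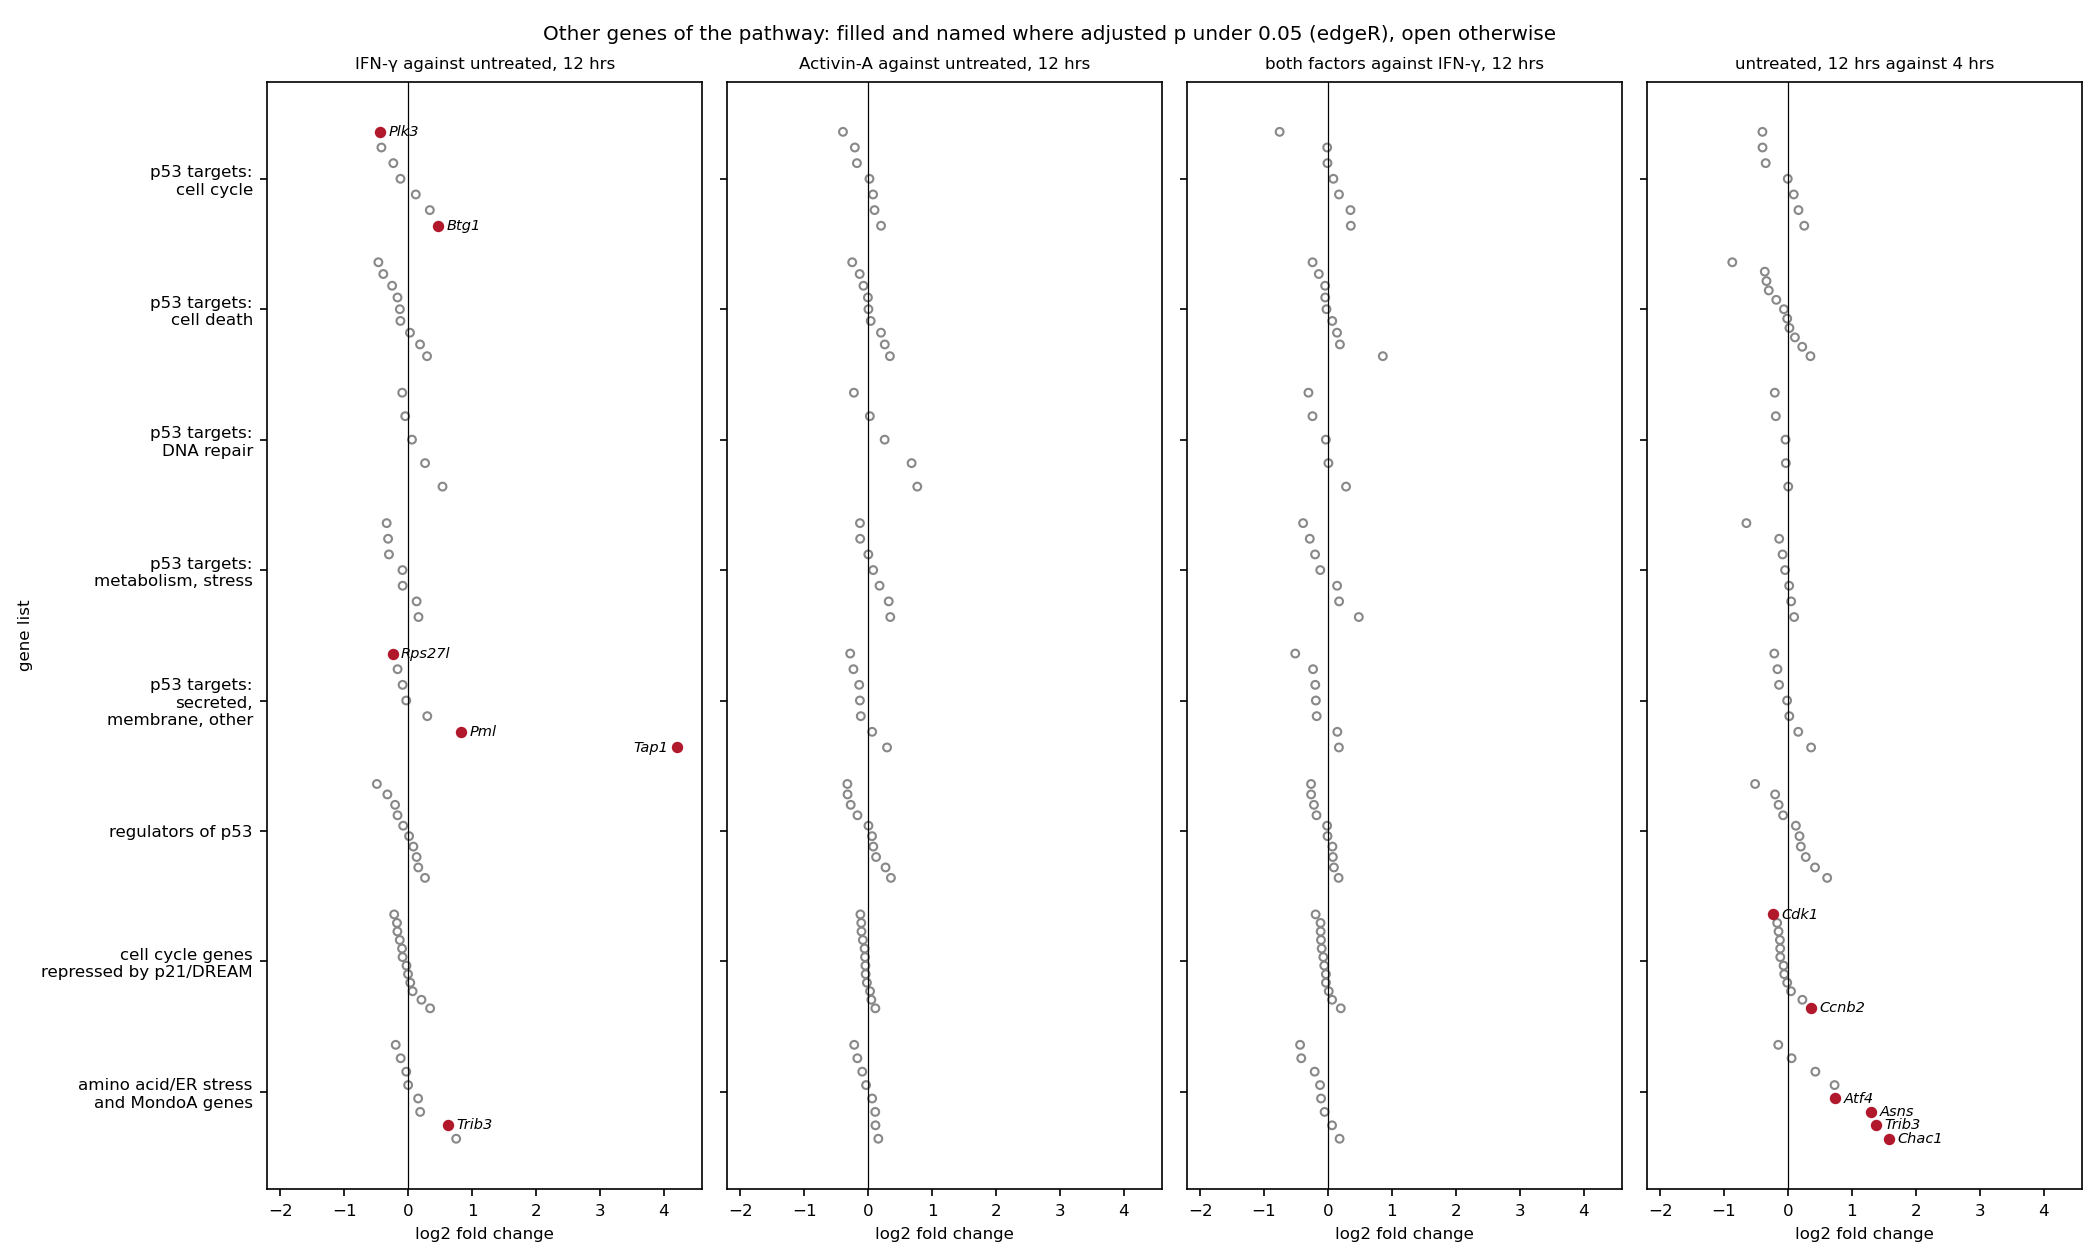
log2FC (x axis) of the genes tested and reported from 8 lists (y axis) in 4 contrasts, IFN-γ, Activin-A and both factors at 12 hrs and untreated cells over time; filled and named points have an edgeR adjusted p under 0.05, open points do not. In the panel of IFN-γ Tap1 lies farthest from 0, at 4.20, and in that of untreated cells over time Chac1, at 1.59.

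Upstream of p53, 12 regulators were listed and 10 tested, among them the kinases Atr and Chek2, the acetyltransferases Ep300, Crebbp and Kat5, the deubiquitinase Usp7 and the Mdm2 relative Mdm4. Of these, 0 were called in each of the 11 contrasts by edgeR, beside 0.00% to 9.25% of all genes, with 0 to 3 at an unadjusted p under 0.05. DESeq2 also called 0 regulators. With both factors against IFN-γ at 12 hrs, however, it gave an adjusted p to only 2, and to 1 in the difference in the effect of IFN-γ between times. With Activin-A at 4 hrs the median log2FC of the regulators was 0.32, with 8 of 10 positive. Without replicate 1 it was 0.11, and 0 were called. Downstream of p21, 12 cell cycle genes that are repressed through the DREAM complex were tested, among them Ccnb1, Plk1 and Mki67. With the treatments edgeR called 0 of 12, with at most 3 at an unadjusted p under 0.05, in IFN-γ at 12 hrs, where Cdkn1a was called higher. DESeq2 also called 0, with an adjusted p for 11 of the genes in both factors against IFN-γ at 12 hrs. Without replicate 1 of Activin-A 0 of 12 were called by edgeR at 4 hrs. From 4 hrs to 12 hrs in untreated cells, where Cdkn1a fell, Ccnb2 rose by a log2FC of 0.36 ± 0.08 (adjusted p = 0.00238) and Cdk1 was lower by -0.24 ± 0.07 (adjusted p = 0.0212). The latter was lost without 1 of 4 wells in turn (adjusted p = 0.0638 to 0.0844).

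Of 8 tested genes of the other known inputs of the members, amino acid and ER stress and MondoA, 4 rose in untreated cells over time, beside 4.90% of all genes, 2 with IFN-γ at 4 hrs, beside 5.06%, and 1 with IFN-γ at 12 hrs, beside 9.25%. These counts were not tested against each other. The 4 that rose in untreated cells from 4 hrs to 12 hrs were Atf4, the stress transcription factor, by a log2FC of 0.74 ± 0.07, its targets Asns by 1.31 ± 0.09 and Chac1 by 1.59 ± 0.22, and the pseudokinase Trib3 by 1.39 ± 0.26 (adjusted p = 3.64e-15, 2.15e-20, 5.77e-08 and 0.000137). All 4 are genes of amino acid and ER stress, and no gene of the MondoA input was called in this contrast. In the same contrast Txnip and Gadd45a were higher and Sesn2 was not called. The part of these inputs in the rise of Txnip and Gadd45a was not tested. With IFN-γ, Atf3 rose at 4 hrs from 5.09 ± 1.55 to 14.04 ± 2.73 CPM, a log2FC of 1.41 ± 0.36 (adjusted p = 0.00614), and Atf4 by 0.27 ± 0.07 (adjusted p = 0.00884), which was lost without replicate 4 of IFN-γ (adjusted p = 0.0552). Trib3 rose by 0.63 ± 0.19 at 12 hrs (adjusted p = 0.0177), which DESeq2 did not call (adjusted p = 0.126) and which was lost without 1 of 4 wells in turn (adjusted p = 0.0529 to 0.0990). Activin-A changed 0 of these 8 genes at 4 hrs or 12 hrs by edgeR, with 1 at an unadjusted p under 0.05 at each time. DESeq2 called 0 of 8 at 4 hrs and 0 of 7 at 12 hrs. Without replicate 1 of Activin-A 0 of 8 were called by edgeR at 4 hrs.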

How the data were processed

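The authors sequenced a pooled BRB-seq library of 32 wells and deposited raw counts per Ensembl gene, which per the labels were made with STAR 2.7.10b and featureCounts on GRCm39, with DESeq2 1.36.0 for their own comparisons. The use of molecular identifiers, the strand setting and the annotation are not given in the sources used here. Reads not collapsed by molecule would make counts less independent than their number implies.

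Of 12451 genes, 12437 were matched to a symbol in GENCODE M21. Positions and promoters are those of GRCm38, a different build from that of the counting, and none was converted. Totals of 654539 to 1455074 counts per well set the precision. Samples were grouped by their GEO labels, and 0 columns of other samples were present. Genes passing filterByExpr were tested with edgeR 4.0.16 (TMM, quasi-likelihood F test, two-sided) in R 4.3.3, using the 16 wells of a time point, or all 32 for contrasts between times, and p-values were adjusted over all genes tested (Benjamini-Hochberg). Genes were called at an adjusted p under 0.05. SE was derived from the log2FC and the F statistic, and CPM were normalized over all wells. Figures were drawn with matplotlib 3.10.9 in Python 3.11.15. The code was tested on simulated data.

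Alternatives were DESeq2 1.42.0 (genes it left without an adjusted p were not counted), RLE normalization, no filter, a mean of at least 10 counts, the replicate number as a block, all 32 or only the 8 compared wells, an adjusted p under 0.01, a log2FC of at least 0.5 in size, and each well left out in turn. The 10 members are all named. Of the wider lists, genes called in a contrast are named, at most 6 per role and contrast, with Irf1, Gbp2 and Ccn2 as controls of the treatments, and 1 gene of these lists with its results is not reported here. Members and lists were chosen with earlier results of these data known.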

Additional observations from a re-analysis of the deposited data

Results flagged for a closer look

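In 8 of 80 groups of 4 wells, 1 well stood far from the other three by the gap to its nearest neighbour relative to the range of the group, above Dixon's 95% critical value for groups of 4. By the construction of that value, chance sets about 1 in 20 groups apart, and no chance rate was measured here. For genes that were called, Cdkn1a in untreated replicate 4 at 4 hrs was at 175 CPM with the others at 147 CPM, Gadd45a in replicate 1 of both factors at 12 hrs was at 78.5 CPM with the others at 109 to 113 CPM, and Sat1 in replicate 4 of Activin-A at 12 hrs was at 139 CPM with the others at 112 to 115 CPM. Phlda3 stood apart in 3 groups: replicate 1 of both factors at 12 hrs had 114 CPM beside 87.9 to 90.2 CPM, replicate 3 of both factors at 4 hrs had 88.0 CPM beside 124 to 130.0 CPM, and replicate 4 of IFN-γ at 12 hrs had 94.9 CPM beside 118 to 121 CPM. Mdm2 in untreated replicate 1 at 4 hrs was at 139 CPM beside 117 to 120.1 CPM. Btg2 in replicate 3 of IFN-γ at 4 hrs was at 11.7 CPM beside 5.96 to 6.08 CPM, which rested on 8 counts.

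The effect of IFN-γ on Cdkn1a differed between the times, by 0.59 on the log2 scale at 12 hrs minus 4 hrs (edgeR adjusted p = 0.0420). Untreated replicate 4 at 4 hrs, the well that stood apart, entered this difference, and without it the value was 0.53 (adjusted p = 0.189).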

How the results depend on the processing

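Of the 14 member changes that were called, 8 were also called in every alternative fit and without any 1 well: Txnip with IFN-γ at both times, with both factors against IFN-γ at 12 hrs and over time, Sat1 with IFN-γ at 12 hrs, Gadd45a with Activin-A at 12 hrs and over time, and Cdkn1a over time. Of the 14, 0 reversed. The other 6 are given with their values in the report, and the cause of their loss was not tested. Only member values printed in the report were followed, and the values left out include some near 0. Of the 36 other member values followed, 1 reversed: the interaction of Txnip at 12 hrs ranged from -0.21 to 0.046 with 1 well left out in turn, and was above 0 without untreated replicate 2 (0.034) or replicate 1 of both factors (0.046).

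The count of members called changed as follows. With a log2FC of at least 0.5 it was 1 for IFN-γ at 4 hrs, 2 in place of 3 at 12 hrs and 1 for Activin-A at 4 hrs. With an adjusted p under 0.01 it was 2 for IFN-γ at 12 hrs, 1 for Activin-A at 4 hrs, 1 at 12 hrs and 0 for the difference in the effect of IFN-γ between times. For Activin-A at 12 hrs it was 1 with RLE normalization, with the replicate block, with all 32 wells and with DESeq2. For IFN-γ at 12 hrs it was 2 with all 32 wells and with DESeq2. DESeq2 gave 0 for Activin-A at 4 hrs and 0 for the difference in the effect of IFN-γ. Without a filter it was 1 for the interaction at 12 hrs. With 1 well left out in turn it ranged from 1 to 2 for IFN-γ at 4 hrs, 2 to 3 at 12 hrs, 1 to 2 for Activin-A at 4 hrs and at 12 hrs, 1 to 2 for both factors against IFN-γ at 12 hrs, 0 to 1 for the interaction at 12 hrs, 3 to 4 over time and 0 to 1 for the difference in the effect of IFN-γ.

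DESeq2 called fewer genes overall: 136 in place of 216 for Activin-A at 12 hrs, 84 in place of 150 at 4 hrs, 44 in place of 74 and 61 in place of 92 for both factors against IFN-γ at 4 hrs and 12 hrs, and 284 in place of 457 over time. For both factors against IFN-γ at 4 hrs 120 genes were called with only the 8 wells compared. The interaction gave 8 genes without a filter, 2 with a mean of at least 10 counts and 0 with DESeq2 in place of 1 at 12 hrs, and 1 without a filter or with all 32 wells in place of 0 at 4 hrs. The stricter thresholds lower such counts by construction.

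Replicate numbers did not pair the wells: deviations from the group means correlated at a mean r of -0.000234 between wells of the same number and 8.07e-05 between wells of different numbers. In 6 of 32 wells the mean correlation with wells of other groups was highest for their own number. As a block, the number changed the call of Txnip with Activin-A at 12 hrs (adjusted p = 0.0538) and of no other member. Depth limits Btg2 and Sesn2, for which only large changes could have been seen.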
